A study of Sus scrofa with 6 samples.

Results

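DPP4, FAP, ANPEP and MME are peptidases anchored in the plasma membrane with their active site outside the cell. They were taken by gene symbol from the annotation of a porcine expression array, using each probe set (a group of short probes for 1 transcript) that carries only that symbol. Of these 4 genes, 3 had a named probe set, with 1 probe set each, out of 6765 named genes on the array. For MME the annotation used here names none, so neprilysin was not measured. The members were chosen by their signals in this same comparison, DPP4 and FAP because they go in opposite directions between the cell lines. The line differences of the members are therefore given as a description, without a test.

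The study compared OBGF400, a pig cell line of olfactory bulb neuroblast origin, with PK15, a pig kidney line described as non-neuronal and epithelial, which served as a somatic background. Neither line was treated, no genetic change is named for either, and both were grown in medium with 10% bovine calf serum. OBGF400 grew in a DMEM/F12/HAM medium and PK15 in minimum essential medium that also held amphotericin B, so line and medium cannot be told apart. Each line had 3 arrays, each loaded with RNA pooled from some of the 9 cultures of that line, and the spread below is a spread between pools of 1 line. RNA came from whole cultures, so fewer cells of a type and less RNA per cell cannot be told apart.

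DPP4 (also called CD26) is a serine peptidase that removes a dipeptide from the start of peptides with proline or alanine in the second place, among them the incretin hormones, neuropeptide Y and several chemokines. It is abundant on the brush border of kidney tubules and gut and on T cells. FAP, fibroblast activation protein, is its closest relative; it can also cut inside collagen-derived chains and is known from activated fibroblasts in wounds and tumour stroma. ANPEP, aminopeptidase N or CD13, is a zinc enzyme that trims neutral residues from the start of peptides, is found on brush borders, myeloid cells, pericytes and fibroblasts, and is the receptor of a pig coronavirus. MME, neprilysin or CD10, cuts small signalling peptides such as tachykinins and natriuretic peptides.

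DPP4 was high in PK15 and close to the lowest value of the table in OBGF400. Its probe set gave log2 signals of 8.31, 8.07 and 8.25 on PK15 replicates 1, 2 and 3, and of 2.38, 2.27 and 2.38 on those of OBGF400. The lines did not overlap: every PK15 array was at least 5.69 log2 units above every OBGF400 array. The line means were 2.34 ± 0.06 in OBGF400 and 8.21 ± 0.13 in PK15 (SD, n = 3). The difference, OBGF400 minus PK15 as throughout, was -5.87 ± 0.08 (SE), a signal 58.4 times as strong in PK15.

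The lowest value in the table, 2.13, is shared by all 6 arrays and is called the floor here. The OBGF400 values of DPP4 lay 0.14 to 0.25 above it, and replicates 1 and 3 gave the same number. On a linear scale the OBGF400 arrays read 4.83 to 5.19 and the PK15 arrays 268 to 318. With 32 added to every linear value, which damps differences that rest on very dim signals, the DPP4 difference was -3.15. Its direction was kept and its size was not.

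FAP had the opposite pattern. Its probe set read 8.69, 8.94 and 8.64 on OBGF400 replicates 1, 2 and 3 and 2.25 on each PK15 array. All OBGF400 arrays were at least 6.40 log2 units above the PK15 arrays. The OBGF400 mean was 8.76 ± 0.16 (SD, n = 3), and the difference was 6.51 ± 0.09 (SE), a signal 91.4 times as strong in OBGF400.

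The PK15 side of FAP was 1 number repeated on all arrays, 0.12 above the floor, so its SD of 0 is no measure of precision. Such repeats were seen for other genes: 592 tested probe sets (2.47%) gave a single value more than 0.1 above the floor on all PK15 arrays, and 633 (2.64%) did so on all OBGF400 arrays. The highest such value was 10.46 in PK15 and 8.56 in OBGF400, so repeats were not confined to signals just above the floor. The SE of the FAP difference thus comes from the OBGF400 arrays alone. With 32 added to the linear values the FAP difference was 3.66.

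ANPEP was the only member read at least 1.97 log2 units above the floor on every array of both lines. Its PK15 signal was still dim, at 17.1 to 28.2 on a linear scale. With 32 added to the linear values its difference was 1.67. No detection calls were used, so whether PK15 expresses it was not tested. Its probe set gave 7.16, 7.03 and 7.31 on OBGF400 replicates 1, 2 and 3 and 4.82, 4.10 and 4.65 on those of PK15. The lines did not overlap, with a smallest gap of 2.22 between any OBGF400 and any PK15 array. The means were 7.17 ± 0.14 and 4.52 ± 0.38 (SD, n = 3), a difference of 2.65 ± 0.23 (SE) or a 6.26-fold stronger signal in OBGF400. ANPEP thus went with FAP and not with DPP4, and 2 enzymes known from brush borders, DPP4 and ANPEP, had opposite signs.

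**Figure D1:**
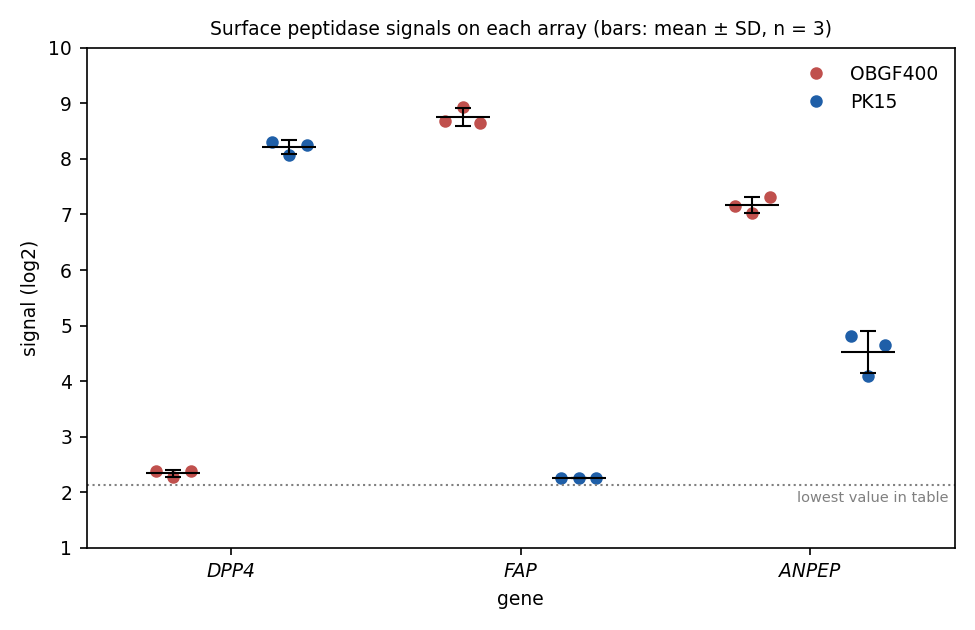
Log2 signals of DPP4, FAP and ANPEP on the 6 arrays, with points for single arrays, long bars for line means and error bars for the SD (n = 3); the dotted line marks the lowest value of the table, 2.13. DPP4 is near that line in OBGF400 and FAP is near it in PK15, while ANPEP lies above it in both lines, between 4.10 and 7.31.

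The spread between pools of a line differed between the members. The PK15 SD of ANPEP, 0.38, was above the median of 0.27 over 1034 probe sets within 0.5 log2 units of the same mean, and 67.7% of those had a smaller SD. In OBGF400 the SD of ANPEP, 0.14, equalled the median of its 1786 neighbours in signal. The SD of FAP in OBGF400, 0.16, was above the corresponding median of 0.10, and that of DPP4 in PK15, 0.13, was below the median of 0.16. PK15 replicate 2 was the lowest PK15 array for both DPP4 and ANPEP, and OBGF400 replicate 2 was the highest OBGF400 array for FAP and the lowest for DPP4 and ANPEP. Leaving out any 1 array gave differences of -5.94 to -5.81 for DPP4, 6.42 to 6.57 for FAP and 2.43 to 2.79 for ANPEP.

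Differences of this kind were common between the lines. Across all 6765 genes, 60.8% were called (limma, Benjamini-Hochberg adjusted p under 0.05), 23.9% higher and 36.8% lower in OBGF400, and 66.9% had no overlap between the arrays of OBGF400 and PK15. All 3 measured members had none either, but they were chosen on this contrast and nothing is read from that count. A difference at least as large as that of DPP4, in either direction, was found for 218 genes (3.22%), and one at least as large as that of FAP for 157 (2.32%). ANPEP can be ranked without the floor: of 4475 genes with a mean above 4 in both lines, 169 (3.78%) had a larger positive difference.

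The genes whose array-to-array profile was closest to each member were found from values centred on each gene's own mean over the 6 arrays, by root mean square distance. DPP4 was closest to MFSD7 (0.08 log2 units), ELF3 (0.09) and SLAIN1 (0.11), which differed by -5.81, -5.88 and -6.07 between the lines. FAP was closest to PHYH (0.10), TFRC (0.10) and ARMCX3 (0.11), with differences of 6.44, 6.54 and 6.62. ANPEP was closest to SWAP70 (0.09), CCPG1 (0.14) and GIT2 (0.15), with differences of 2.60, 2.69 and 2.61. With 6 arrays in 2 lines, genes that are close by this measure have nearly the same line difference.

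DPP4 and FAP are near neighbours in the pig genome. In the gene order of the RefSeq table of assembly Sscrofa11.1, the only protein-coding gene between them is GCG, which encodes glucagon and the glucagon-like peptides, themselves substrates of DPP4. GCG read 2.13, the floor, on all 6 arrays. The opposite line preferences of DPP4 and FAP thus lay on either side of a gene with no signal above the floor in either line. Of the 5 protein-coding genes on each side of the pair, 3 were measured, all on the DPP4 side. RBMS1, an RNA-binding protein gene, was at 7.85 ± 0.07 in OBGF400 against 5.78 ± 0.46 (SD, n = 3) in PK15 and thus higher by 2.07 (limma, adjusted p = 0.00192). TANK, an adaptor of NF-kappaB and interferon signalling, was also higher in OBGF400, by 1.06 (limma, adjusted p = 0.00313), a call lost under poly-A control scaling (0.21). RBMS1 and TANK have 2 probe sets each, of which the brighter is given; averaged over both, the differences were 1.04 and 0.50. PSMD14, a deubiquitinating subunit of the proteasome lid, was lower (-1.40, limma, adjusted p = 8.04e-05). The measured genes of the region therefore did not share a direction. The interferon sensor gene IFIH1, next to FAP, has no named probe set here.

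**Figure D2:**
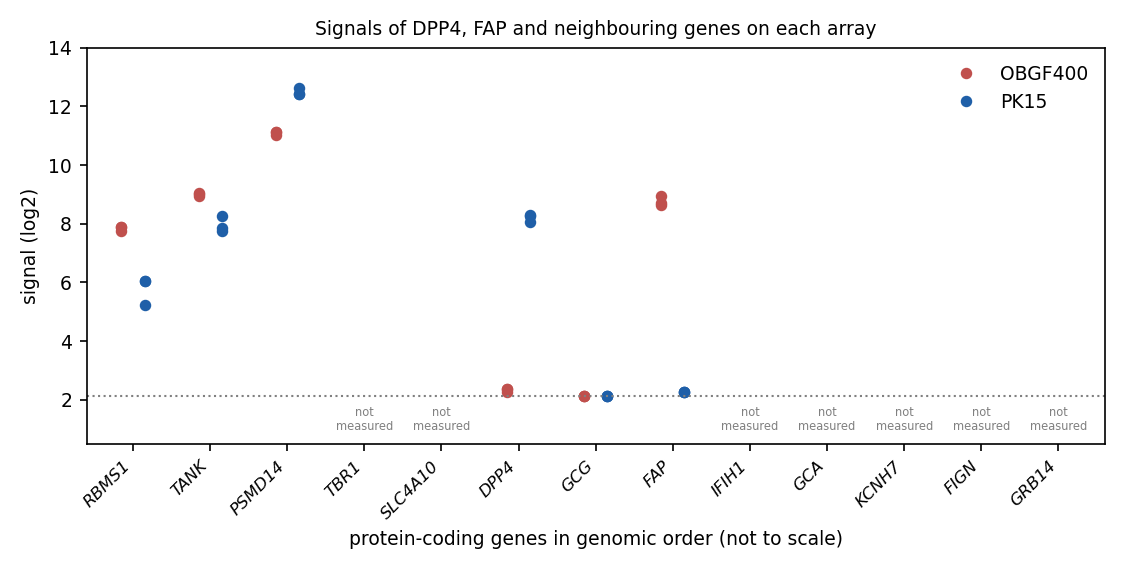
Log2 signals of DPP4, FAP and the protein-coding genes around them on each of the 6 arrays, in genomic order and not to scale, with the dotted line at the lowest value of the table. DPP4 and FAP show opposite line preferences on both sides of GCG, which reads 2.13 on every array; genes marked as not measured have no named probe set here.

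Around ANPEP, 3 of the 10 nearest protein-coding genes were measured. AP3S2, an adaptor subunit of vesicle traffic, and IDH2, a mitochondrial dehydrogenase, were lower in OBGF400, at differences of -0.79 and -0.99 (limma, adjusted p = 0.000165 and 0.000287), the opposite sign to ANPEP. Under hybridization control scaling neither was called, and AP3S2 (0.05) changed sign while IDH2 (-0.14) did not. AP3S2 has 2 probe sets, of which the brighter is given. WDR93 was at the floor in both lines. These neighbours were looked up after the members' values were known.

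Other peptidases were counted from 6 lists of enzymes related to the members by family, by place at the cell surface or by substrate, with the inhibitors of surface serine proteases. Of 89 listed genes beside the members, 43 were measured. In OBGF400, 8 were higher and 19 lower; the other 16 were not called, and 8 of these read at the floor in each line. The called share, 62.8%, is near the 60.8% of all genes. The median difference was -0.27, against -0.002 over all genes. The split of calls depends on the scaling of the arrays: it was 25 higher and 11 lower where arrays were scaled to the hybridization controls, and 5 higher and 33 lower where they were scaled to 2 of the poly-A controls, dap and thr. The median over all genes then became 0.85 and -0.86. The 8 genes at the floor in each line are among the 25 higher and among the 33 lower, called by the scaling constant alone. As deposited, the listed genes with a difference at least as large as that of DPP4 were CPQ, ST14 and SPINT2, all lower in OBGF400. FAP was then exceeded in size by SPINT2 alone. With 32 added to the linear values, differences with 1 line dim were smaller. They were -2.57 for CPM, -3.92 for CPQ, -3.21 for ST14, -3.45 for SPINT1, -4.42 for SPINT2 and -2.77 for HPN. GGT7, dim in both lines at means of 4.04 in OBGF400 and 3.28 in PK15, then differed by 0.22. The directions of these genes were kept, but the ranking by size was not. With 32 added, SERPINE2 (5.04), PLAT (-4.71), SPINT2 and CPQ exceeded FAP (3.66) in size. SPINT1 and ST14 then also exceeded DPP4 (-3.15).

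**Figure D3:**
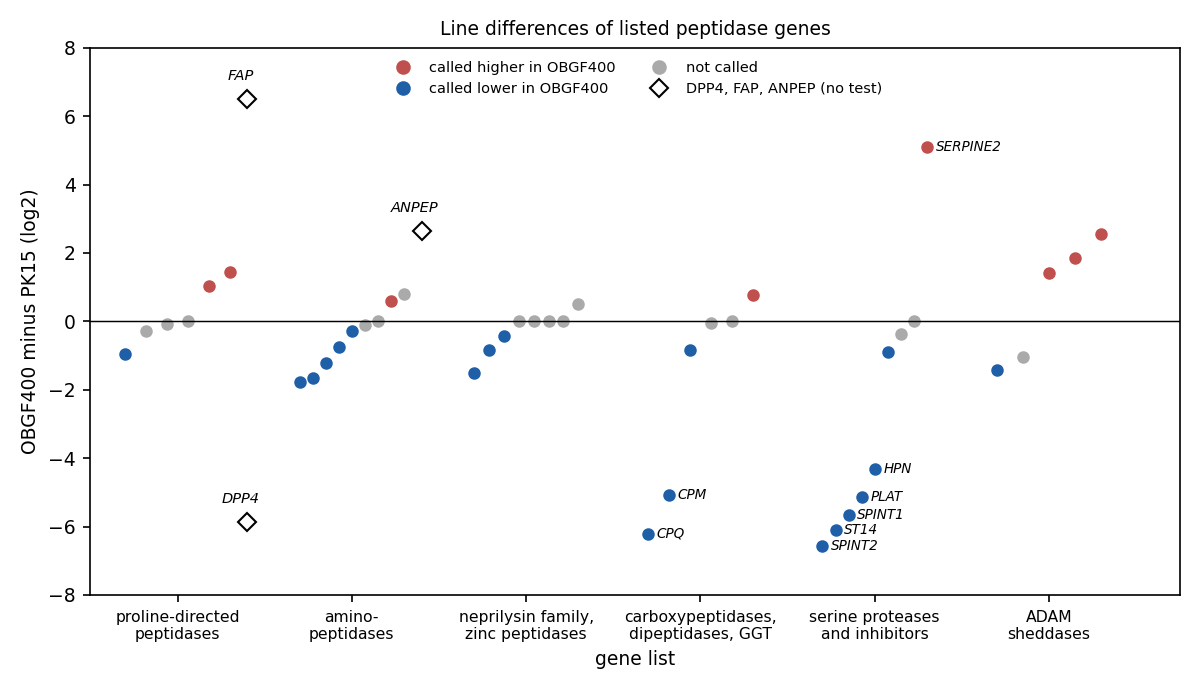
Difference between the lines (OBGF400 minus PK15, log2) for the 43 measured listed peptidase and inhibitor genes, 1 point per gene in 6 lists, coloured by the limma call; open diamonds show DPP4, FAP and ANPEP, which were not tested. Most points lie within 2 of 0, and those beyond 4 are carboxypeptidase, serine protease and SPINT inhibitor genes lower in OBGF400 and the inhibitor SERPINE2, higher in OBGF400.

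Among other proline-directed peptidases, the family of DPP4 and FAP included, called differences lay between -0.95 and 1.45. Of 14 listed genes 6 were measured, of which 2 were higher, 1 was lower and 3 were not called. The median was -0.03. PREP, a cytosolic prolyl endopeptidase of the same fold, was at 9.67 ± 0.06 in OBGF400 against 8.22 ± 0.34 (SD, n = 3) in PK15 and thus higher by 1.45 (limma, adjusted p = 0.0022). PRCP, a lysosomal prolyl carboxypeptidase, was higher by 1.02, a call lost under poly-A control scaling (0.16). XPNPEP1, a cytosolic aminopeptidase that frees residues before proline, was lower (-0.95) by 1 of its 2 probe sets (-0.47 averaged over both), a call lost under hybridization control scaling (-0.10). The dipeptidyl peptidases DPP7, DPP8 and DPP9 have no named probe set here. The sign of this list's median follows the scaling used (0.81 and -0.89), and so did its calls: hybridization controls gave 5 higher genes and 0 lower, poly-A controls 1 higher gene and 4 lower.

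Of 9 measured aminopeptidases beside ANPEP, 5 were lower and 1 higher in OBGF400 as deposited. This majority turned with the scaling: arrays scaled to the hybridization controls had 2 lower genes and 5 higher, and those scaled to the poly-A controls 7 lower genes and 0 higher. The median was -0.27 as deposited, 0.57 under hybridization control scaling and -1.13 under poly-A control scaling. The lower ones included LAP3, a cytosolic leucine aminopeptidase (-1.76 by its brightest probe set, 2 of 4 being called lower, and -0.84 averaged over all 4), BLMH, bleomycin hydrolase (-1.67), and NPEPPS, the puromycin-sensitive aminopeptidase (-1.22, or -0.38 and not called after hybridization control scaling). METAP2, which removes the first methionine of new proteins, was higher by 0.60, or -0.26 under poly-A control scaling. ENPEP, aminopeptidase A, a surface relative of ANPEP, was at the floor on all 6 arrays.

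The neprilysin group had few readable genes. Of 8 measured genes of zinc peptidases that cut signalling peptides, 3 were lower, 0 higher and 5 not called, and 4 read at the floor in each line. The counts became 1 lower gene and 6 higher with the hybridization controls, against 7 lower genes and 0 higher with the poly-A controls. The 4 genes at the floor are among the 6 higher and among the 7 lower. The scaling constant alone calls them, so nothing is read from this change. ECE1, the endothelin-converting enzyme and a relative of MME, and ACE, the angiotensin-converting enzyme, were both at the floor in both lines. The insulin-degrading enzyme IDE was lower in OBGF400, at 9.63 ± 0.05 against 11.15 ± 0.17 (SD, n = 3), a difference of -1.52 (limma, adjusted p = 0.000231). NRDC, nardilysin, and NLN, neurolysin, were lower as deposited (-0.83, by 1 of 2 probe sets, and -0.42, with 4 of 5 called lower), were at -0.36 and -0.95 averaged over all their probe sets, and differed by 0.02 and 0.42 after hybridization control scaling. No measured gene stands in for MME here.

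The measured carboxypeptidases CPM, CPQ and CPD were lower in OBGF400, as DPP4 was. Of 6 measured genes of carboxypeptidases, dipeptidases and transpeptidases, 3 were lower and 1 higher; the median was -0.45 (0.40 with 2 lower genes and 3 higher when scaled to the hybridization controls, -1.30 with 5 lower genes and 0 higher when scaled to the poly-A controls). CPM, a membrane-anchored carboxypeptidase that removes basic residues, read 2.63, 2.63 and 2.28 in OBGF400 and 7.41, 7.45 and 7.89 in PK15, a difference of -5.07 (limma, adjusted p = 3.82e-05). CPQ, a secreted carboxypeptidase, read 2.94 on each OBGF400 array and 9.15 ± 0.06 in PK15 (SD, n = 3), and was thus lower (-6.21, limma, adjusted p = 2.11e-07). As for FAP in PK15, the repeated value is no measure of precision, so the p-value of CPQ may be too small. In OBGF400 CPM was at most 0.50 above the floor and CPQ 0.81 above it. CPD was lower (-0.84) by 1 of its 3 probe sets (-0.20 averaged over all). That call did not hold when OBGF400 replicate 3 (-0.84) or PK15 replicate 3 (-0.75) was left out, and the difference was 0.00 after hybridization control scaling. GGT7 was higher by 0.76 (-0.09 under poly-A control scaling).

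Surface serine proteases and their inhibitors were mostly lower in OBGF400. Of 9 measured, 6 were lower and 1 higher, and the median was -4.31 (-3.46 and -5.16 under the control scalings). ST14, matriptase, an epithelial membrane protease, read 2.15 ± 0.04 in OBGF400 and 8.26 ± 0.09 in PK15 (SD, n = 3). ST14 was at the floor in OBGF400, so its SD there is no measure of precision. Its inhibitors SPINT1 and SPINT2 were lower in OBGF400 as well (-5.66 and -6.57), the latter by 1 of 2 probe sets (-3.31 averaged over both), against -6.11 for ST14 itself. HPN, hepsin, and PLAT, tissue plasminogen activator, which lie outside the naming rule and were chosen after their values were seen, differed by -4.31 and -5.15. SERPINE2, protease nexin, an inhibitor of thrombin and plasminogen activators, was the one higher gene, at 14.87 ± 0.07 against 9.77 ± 0.18 (SD, n = 3), a difference of 5.09 (limma, adjusted p = 7.18e-06). Adjusted p-values of ST14, SPINT1 and SPINT2 were 6.09e-07, 3.2e-05 and 6.75e-05 (limma), and that of ST14 may be too small, as for CPQ.

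ADAM sheddases, which release surface proteins from the membrane, were more often higher than lower in OBGF400. Of 5 measured, 3 were higher and 1 lower, and the median was 1.41 (2.26 and 0.56 under the control scalings). ADAM10 (2.54), ADAM17 (1.84) and ADAM9 (1.41) were the higher ones, at 1.53, 1.38 and 1.39 with 32 added. ADAM15 (-1.43, or -0.33 with 32 added) was the lower. ADAM10, whose difference was close in size to that of ANPEP, was at 6.96 ± 0.05 in OBGF400 against 4.42 ± 0.50 (SD, n = 3) in PK15. Of the 4 probe sets of ADAM17, 2 were called higher and 1 lower, and their average differed by 1.13.

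Among the substrates of these peptidases, 3 of 13 measured genes were higher in OBGF400 and 1 was lower, and 6 read at the floor in each line. Genes at the floor in both lines are moved by the control scalings, under which the counts were 12 higher and 1 lower, and 3 higher and 10 lower. Neuropeptide Y, NPY, a DPP4 substrate, was at 6.22 ± 0.19 in OBGF400 against 2.40 ± 0.09 (SD, n = 3) in PK15 and thus higher by 3.82 (limma, adjusted p = 2.18e-05) by 1 of 2 probe sets, or by 1.91 averaged over both and 1.52 with 32 added. Its receptor gene NPY1R was higher by 5.83, at 8.00, 8.31 and 8.17 against 2.30, 2.40 and 2.27 (limma, adjusted p = 3.54e-06), and by 3.10 with 32 added. NPY and NPY1R were thus both read in the line in which DPP4 was near the floor. The angiotensin precursor AGT (3.39) and adrenomedullin, ADM (3.36), were also higher. CCL5, a chemokine that DPP4 trims, was lower (-1.62, limma, adjusted p = 0.0148, or -0.71 with 32 added), a call that did not hold when OBGF400 replicate 2 (-1.58) or 3 (-1.65) or PK15 replicate 3 (-1.51) was left out. The chemokines CXCL12 and CXCL9 were at the floor in both lines.

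Of 6 measured receptors for such peptides, 3 were higher in OBGF400 and 0 lower, and 3 read at the floor in each line. The median was 0.96 (1.80 and 0.10 under the control scalings, with 6 and 3 higher and 0 and 3 lower). The change in these counts comes from the 3 genes at the floor, called by the scaling constant alone. Beside NPY1R they were the endothelin receptor EDNRA (5.37, or 2.70 with 32 added) and the natriuretic peptide receptor NPR2 (1.91, limma, adjusted p = 0.000142). CXCR4, the receptor of CXCL12, and AGTR1, an angiotensin receptor, were at the floor in both lines. Of 6 measured binding partners, 3 were higher and 0 lower, and 2 read at the floor in each line. The median was 0.28, or -0.57 under poly-A control scaling, with 1 higher and 3 lower. The 2 genes at the floor are among these 3 lower ones. ITGB1, the integrin beta subunit with which FAP and DPP4 associate, was higher by 1.89 (limma, adjusted p = 4.56e-05). CAV1, caveolin, which binds DPP4, was higher by 0.59 by its brightest probe set, 1.39 averaged over its 3, or -0.26 under poly-A control scaling, and its call did not hold when OBGF400 replicate 2 (0.56) or 3 (0.57) or PK15 replicate 3 (0.59) was left out. IGF2R was higher by 0.46 (limma, adjusted p = 0.0495), or -0.39 under poly-A control scaling. The IGF2R call did not hold when OBGF400 replicate 1 (0.53) or 2 (0.55) or any 1 PK15 array (0.46) was left out, nor with 32 added (0.15). It was also lost under quantile normalization (0.42), median centring (0.38), array weights (0.53) and trended and robust variance (0.46).

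Of 7 transcription factors listed as regulators of brush border genes or of ANPEP, 2 were measured. HNF4A, a nuclear receptor of kidney, liver and gut epithelium, was lower in OBGF400 (-5.47), at 3.93, 3.42 and 3.98 against 9.00, 9.58 and 9.16 (limma, adjusted p = 6.46e-05). The HNF4A difference was -3.67 averaged over its 2 probe sets, both called lower, and -3.8 with 32 added. ETS2 was higher by 1.18 (2.11 averaged over its 3 probe sets), a call lost under poly-A control scaling (0.33). Among 5 measured surface ectoenzymes that are not peptidases, 1 was higher and 1 lower, and the other 3 read at the floor in each line. ENPP1, a nucleotide pyrophosphatase, was higher by 8.55 (limma, adjusted p = 1.99e-07), or by 5.86 with 32 added, as its PK15 mean was 2.53. ENPP2, autotaxin, was lower (-2.80), with PK15 arrays at 5.37, 6.28 and 3.13 (limma, adjusted p = 0.048). Its call did not hold when PK15 replicate 1 (-2.57) or 2 (-2.12) or any 1 OBGF400 array (-2.80) was left out. The call was also lost with 32 added (-0.92) and under trended and robust variance (-2.80).

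Marker genes were read beside the members, since FAP and ANPEP are known from fibroblasts and pericytes and DPP4 from brush borders. Of 8 measured fibroblast and pericyte markers, 7 were higher in OBGF400 and 0 lower. The summed log2 signal of the 8 was 89.6 to 89.7 in OBGF400 and 19.9 to 20.4 in PK15. COL3A1, the marker not called, read 2.58 to 2.8 in OBGF400 and 2.58 on each PK15 array. The 7 measured simple epithelial markers were all lower in OBGF400, with sums of 17.2 to 18.0 against 92.1 to 92.6. Of 10 brush border and proximal tubule markers, 2 were lower, 1 higher and 7 not called, with sums of 29.3 to 29.5 against 40.8 to 41.5. The lower ones were VIL1, villin of microvilli (-5.67), and PDZK1, a brush border scaffold (-7.00, by 1 of 2 probe sets), while AMN, SLC22A8 and FABP1 were at the floor in both lines and LRP2, megalin, read at most 2.74. The higher one was SLC3A1 (0.98), whose 2 probe sets were called with opposite signs. PK15 thus lacked signal for several tubule genes beside its high DPP4.

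Of 7 measured neuroblast and neuron markers, 3 were higher in OBGF400 (NCAM1, MAP2 and UCHL1), STMN1 was lower, and GAP43, ELAVL4 and NEFL were at the floor in both lines, with sums of 46.7 to 47.0 against 26.3 to 27.0. Other neural markers such as DCX, TUBB3, NES and SOX2 have no named probe set here. Leukocytes also carry DPP4, ANPEP and MME. Of 6 leukocyte markers, 2 were higher and 1 lower, with sums of 20.2 to 20.4 against 21.5 to 21.9. The higher ones were CD3E (means of 5.5 in OBGF400 and 3.99 in PK15) and CD14 (5.92 and 4.89, by 1 of 2 probe sets). SPI1 (2.47 and 6.48) was the lower one. The pan-leukocyte gene PTPRC, CD4 and ITGAM were at the floor in both lines. Of 5 endothelial markers, 1 was lower and none higher, with sums of 10.7 to 10.9 against 12.3 to 14.3. The part of these marker differences in the values of DPP4, FAP and ANPEP was not tested.

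The members kept their directions under every scaling tried, which is no test of them. The control scalings add a constant per array and moved the median over all genes to 0.85 and -0.86, less than any member's difference. Adding 32 keeps the order of arrays that do not overlap. The sizes are therefore given as a description. DPP4 differed by -5.02 under hybridization control scaling and -6.72 under poly-A control scaling, FAP by 7.36 and 5.66, and ANPEP by 3.49 and 1.79. ANPEP, the smallest of the 3 differences, was 1.67 with 32 added to the linear values.

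**Figure D4:**
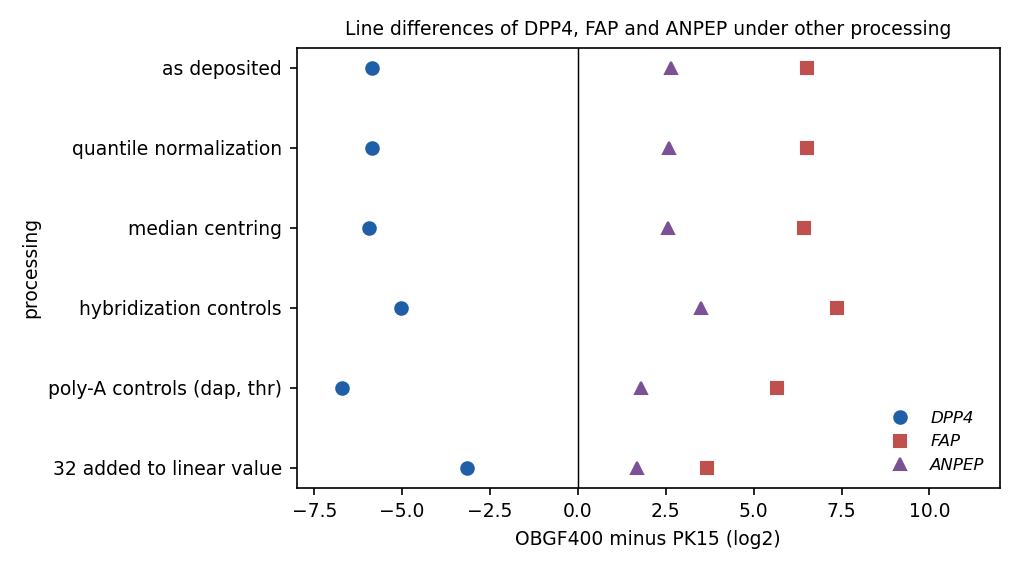
Differences between the lines (OBGF400 minus PK15, log2) of DPP4, FAP and ANPEP as deposited and under 5 other ways of processing. DPP4 stays below 0 (-6.72 to -3.15) and FAP (3.66 to 7.36) and ANPEP (1.67 to 3.49) stay above 0 in each.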

How the data were processed

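RNA of 6 pools, 3 per line, was labelled with biotin (8 µg each) and hybridized to porcine arrays, per the labels' protocols. The deposited values are log2 signals, 1 for each probe set on each array. They were made with affy (version not stated), per the submitters' processing notes; how background, summary and normalization were done is not given in the sources used here. Array means were 5.42 to 5.43, and 25.8% to 27.3% of probe sets lay at the array minimum. No detection calls were used, and the number of arrays limits the precision.

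Of 24123 probe sets, 124 controls were left out. Symbols came from the platform annotation: 10069 probe sets had 1 symbol, 198 several and 13732 none, and 9961 of the first matched the RefSeq table by Entrez number. Each gene was represented by its probe set with the highest 6-array mean. A gene within 0.1 of 2.13 on all arrays of a line is called at the floor. Lines were compared with limma 3.58.1 (lmFit, eBayes, two-sided, Benjamini-Hochberg over 6765 genes) in R 4.3.3, after a check on simulated data, with tables made in Python 3.11.15. The smallest exact permutation p of 3 against 3 arrays is 0.1, so none is given. Up to 3 called genes per direction and list were named, with the members, PREP, ENPEP, ECE1 and ACE, the 3 closest profiles of each member, and markers. Members, lists and alternatives were chosen with earlier results of these data known. Sequences were not used here.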

Additional observations from a re-analysis of the deposited data

How the results depend on the processing

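Alternatives were quantile normalization, median centring, 2 control scalings, 32 added to linear values, averaging all probe sets of a gene, 2 filters on dim genes, trended and robust variance, array weights, a threshold of 0.01, the replicate block and leaving out each array. Each member has 1 probe set, so no other probe set could be tried. No member changed direction. With gaps between the lines of at least 2.22, none could under the control scalings, the added 32 or leaving out an array. DPP4, FAP and ANPEP differed by -5.02, 7.36 and 3.49 under hybridization control scaling, by -6.72, 5.66 and 1.79 under poly-A control scaling, and by -3.15, 3.66 and 1.67 with 32 added. Genes called higher and lower were 4514 and 1209 under hybridization control scaling and 753 and 5203 under poly-A control scaling, against 1620 and 2492. For listed peptidases these were 25 and 11, and 5 and 33, against 8 and 19. Leaving out an array gave 3735 to 3979 called genes (1471 to 1575 higher, 2264 to 2441 lower) and 25 to 27 listed peptidases (8 to 9 higher, 17 to 19 lower). Under poly-A control scaling METAP2 (-0.26), GGT7 (-0.09), CAV1 (-0.26) and IGF2R (-0.39) changed sign, and under hybridization control scaling NLN (0.42), NRDC (0.02), CPD (0.00) and AP3S2 (0.05) did. These scalings add a constant per array, which by construction moves small differences across 0 and calls genes at the floor in both lines. With the replicate block 3782 genes and 25 listed peptidases were called, and the calls of CPD, CCL5, CAV1, IGF2R and ENPP2 were lost. Deviations of same-numbered arrays correlated at -0.01 to 0.03, so the numbers are not treated as pairs.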
